A study of Mus musculus with 1111 samples.

Results

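The 10 genes described here belong to the actin cytoskeleton and were followed in single mouse microglia: the cytoplasmic actins Actb and Actg1, the Arp2/3 complex subunits Arpc2, Arpc3, Arpc4, Arpc5 and Arpc1b, and the actin-binding genes Pfn1, Tmsb4x and Cfl1. They were taken by name from the gene column of the count tables, where all 10 were found among 35583 genes. The study sorted brain microglia of 3-month-old mice 20 hours after an injection of plasma proteins carrying the fluorescent dye Atto647N. By the intensity of the dye in each cell, the cells were sorted into plasma none, plasma low and plasma high (below also the none, low and high groups), so that every group, plasma none included, came from injected mice. Each cell was made into its own Smart-seq2 library, a full-length cDNA method for single cells. Strain, sex, genotype and the number of mice are not given in the sources used here.

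Actin monomers join into filaments, and the Arp2/3 complex starts new filaments as branches on the side of old ones. Profilin hands monomers to growing ends, thymosin beta 4 holds monomers in reserve, and cofilin cuts and dissolves old filaments. In microglia, the resident macrophages of the brain, this machinery moves the processes that survey the tissue and shapes the membrane cups that take up particles and fluid.

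The sums behind the values were built from 987 of 1045 cells with a column in the tables, after a minimum of 50000 reads and 500 genes per cell. Of these cells 35.1% were plasma none, 35.6% plasma low and 29.4% plasma high, spread over 3 TH numbers, a label in the sample titles whose meaning the labels do not give. Each group and TH number was summed to 1 of 9 sums of at least 93 cells and 2.13e+07 to 4.93e+07 reads. Levels are the reads of a gene per 1000000 reads of such a sum (CPM), after scaling between sums. An SD here is over the 3 TH numbers (n = 3), which are not known to be separate mice, so a group counts as 1 sample and no test between groups was made. In the wells the titles name, plasma none lay in plate columns 1 to 8, plasma low in 9 to 16 and plasma high in 17 to 24, so plasma group and plate position cannot be told apart. The cells carried microglial markers: 8 of 8 (P2ry12, Tmem119, Cx3cr1 and others) had reads, and their summed level lay between 45387 and 54371 CPM in the 9 sums. Markers of neutrophils and of lymphocytes were at 0 in all groups, as were Acta2, Myh11, Rgs5, Pdgfrb and Des of mural and smooth muscle cells, which would bring muscle actin. The sixth mural marker summed to at most 2.23 CPM. Markers of border-associated macrophages summed to 0.66 ± 0.59 CPM in the none group, 9.89 ± 10.7 in the low group and 2.29 ± 2.25 in the high group. Those of monocytes averaged 2.65 to 2.81 CPM. Those of astrocytes reached 27.8 CPM in the low group and at most 5.40 CPM in the other groups. Markers of oligodendrocytes summed to 49.6 ± 25.1 CPM in the none group, 49.7 ± 18.3 in the low group and 74.1 ± 15.4 in the high group, with Mog and Cldn11 at 0. Those of neurons reached 55.4 CPM in 1 sum of the high group and at most 4.88 CPM in the other groups, and those of endothelial cells averaged 12.9 to 17.2 CPM. The part of these cells in the results was not tested beyond leaving out cells with at least 3 markers of a list at 10 CPM or more. That left out 1 plasma none cell with red cell markers and 1 plasma high cell with oligodendrocyte markers. No cell met it for neurons or endothelial cells, so it could not address their markers.

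The actins are near copies, which matters for reads that could come from either. Actb lies at chr5:142903115-142906754 on the minus strand and Actg1 at chr11:120345690-120348542 on the minus strand (GRCm38, GENCODE M21, whose coordinates equal those in the tables for all 10 genes). Their coding sequences, 1125 bases each in that annotation, are identical at 997 bases, or 88.6%. The first 36 coding bases are shown because 9 of them tell the actins apart, with those bases in capitals:
Actb: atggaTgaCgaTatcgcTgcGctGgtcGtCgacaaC
Actg1: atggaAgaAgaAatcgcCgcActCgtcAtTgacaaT
Of 1076 stretches of 50 bases in the Actb coding sequence, 30 also occur in that of Actg1. Over whole transcripts, 9.12% of such stretches of Actb and 37.4% of those of Actg1 also occur in another annotated gene, mostly processed pseudogenes for Actg1. The level of Actg1 is therefore the less certain of the pair.

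Actb was higher in cells that held plasma protein. Its level in the none group was 9186, 8426 and 6791 CPM in TH numbers 1, 2 and 3 (mean 8134 ± 1224, SD, n = 3). In plasma low it was 11265, 12088 and 8952 CPM (10768 ± 1626), and in the high group 13412, 12812 and 8522 CPM (11582 ± 2667). Both plasma-positive groups lay above the none group within every TH number, while the ranges of the groups overlapped, with TH number 3 the lowest in each. The log2 ratio of high to none was 0.49 ± 0.15, a 1.41-fold difference, and that of low to none was 0.40 ± 0.11. Plasma high and plasma low differed by 0.09 ± 0.16, less than the spread between TH numbers.

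Actg1, the other cytoplasmic actin, had 332.1, 192.4 and 193.7 CPM in the none group, 303.2, 284.5 and 247.6 CPM in the low group and 331.003, 325.7 and 247.9 CPM in the high group. In TH number 1 plasma none was as high as plasma high, and the groups overlapped. The log2 ratio of high to none was 0.37 ± 0.38, with -0.0050 in TH number 1, so the difference was no larger than its spread, and it was 0.56 without TH number 1 and 0.17 without TH number 2. Actb made up 97.2% ± 0.63 of the reads of both actins in the none group, 97.5% ± 0.21 in the low group and 97.4% ± 0.22 in the high group. The balance between the actins therefore differed by less than the spread over TH numbers. Acta1, Acta2, Actc1 and Actg2, the muscle actins, did not reach the level needed to be compared.

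Pfn1, Tmsb4x and Cfl1, which set how many monomers are free and how fast filaments turn over, were all higher in the high group than in the none group in 3 of 3 TH numbers. Cfl1, which encodes cofilin 1 (chr19:5490455-5495201, plus strand), had 539.0, 468.5 and 397.6 CPM in the none group, 625.4, 624.8 and 500.9 CPM in the low group and 695.6, 724.4 and 588.2 CPM in the high group. Every plasma high value lay above every plasma none value, and plasma low lay between them within each TH number. The log2 ratio to the none group was 0.52 ± 0.14 for plasma high (1.43-fold) and 0.32 ± 0.10 for plasma low. Cfl1 was also higher in the high group than in the low group in 3 of 3 TH numbers, by 0.20 ± 0.041.

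Tmsb4x, which encodes thymosin beta 4 (chrX:167207093-167209315, minus strand), had 4442, 2524 and 3106 CPM in the none group, 5478, 3145 and 3693 CPM in the low group and 5357, 3468 and 4060 CPM in the high group. TH number 1 was the highest in each group, so the groups overlapped, yet both plasma-positive groups exceeded the none group within each TH number. The log2 ratio to the none group was 0.37 ± 0.095 for plasma high and 0.29 ± 0.036 for plasma low, the narrowest spread of the 10 genes in that comparison. Plasma high differed from plasma low by 0.08 ± 0.099.

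Pfn1, which encodes profilin 1 (chr11:70651850-70654644, minus strand), had 498.2, 376.7 and 265.7 CPM in the none group, 538.5, 485.1 and 353.9 CPM in the low group and 525.9, 533.7 and 458.9 CPM in the high group. The lowest value was TH number 3 of the none group, and the groups overlapped. Its log2 ratio of high to none was 0.08, 0.50 and 0.79 in TH numbers 1, 2 and 3 (0.46 ± 0.36), and the mean was 0.29 without TH number 3. Its ratio of low to none was 0.30 ± 0.16.

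**Figure D1:**
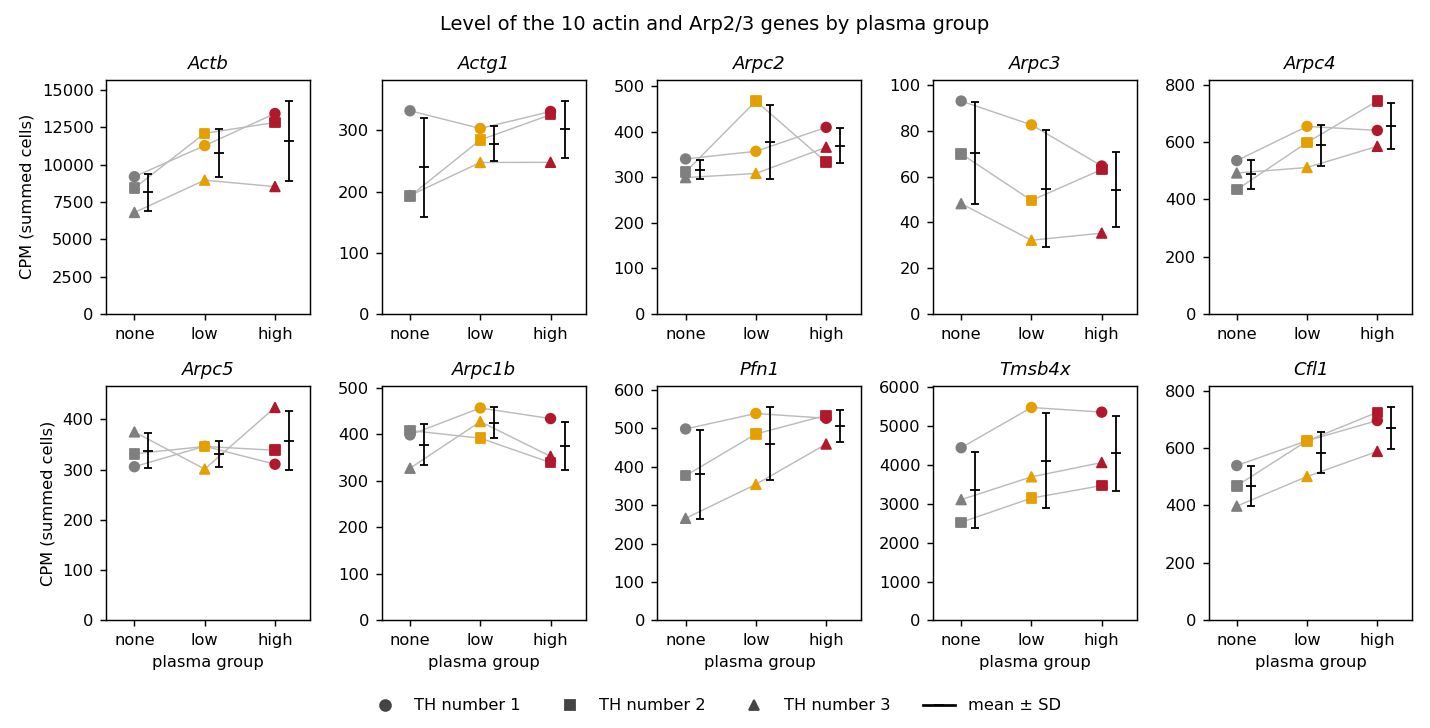
Level of each of the 10 genes in CPM (vertical axes, each from 0) in plasma none, low and high, with 1 point per TH number, lines joining the same TH number, and the mean ± SD of the 3 TH numbers beside them. Actb, Tmsb4x, Pfn1 and Cfl1 lie higher at the high than at the none end of all 3 lines, and Arpc3 lies lower along all 3.

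The 5 Arp2/3 subunits did not move as a block. Arpc4, Arpc2 and Arpc5 were higher in the high group than in the none group in 3 of 3 TH numbers, Arpc3 was lower in 3 of 3, and Arpc1b was mixed. Their log2 ratios had a median of 0.08, against 0.43 for the actins and 0.46 for Pfn1, Tmsb4x and Cfl1. The summed level of the 5 subunits was 1590 ± 72.4 CPM in the none group, 1777 ± 171.9 CPM in the low group and 1813 ± 48.5 CPM in the high group.

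Arpc4 and Arpc2 form the core of the complex that contacts the mother filament. Arpc4 (chr6:113378115-113390448, plus strand) had 535.1, 433.8 and 491.8 CPM in the none group, 654.5, 598.3 and 511.0 CPM in the low group and 640.4, 743.0 and 584.8 CPM in the high group. Every plasma high value exceeded every plasma none value, with a log2 ratio of 0.43 ± 0.30 that was 0.25 without TH number 2. A single cell held 10.6% of the plasma high reads of Arpc4, and the ratio was 0.36 with the highest cell left out. The gene shares exonic bases on the same strand with Ttll3, which had 38379 reads against 164974 for Arpc4 before the cell filter, and how the counting divided such reads is not given in the sources used here. Cfl1 and Arpc1b overlap exons of Snx32 and Pdap1 on the opposite strand, and without strand such reads cannot be told apart.

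Arpc2 (chr1:74236084-74268209, plus strand) had 340.7, 311.96 and 299.6 CPM in the none group, 357.5, 467.9 and 308.8 CPM in the low group and 410.1, 333.5 and 366.4 CPM in the high group. The plasma high values exceeded those of the none group within each TH number but overlapped between them, with a log2 ratio of 0.22 ± 0.11. That ratio was 0.10 with every cell given equal weight and 0.35 without the outermost wells. The highest single value was TH number 2 of the low group, and without TH number 2 the ratio of low to none was 0.06 and not 0.23.

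Arpc5 and Arpc1b differed little between the groups. Arpc5, a peripheral subunit of the complex (chr1:152766542-152775597, plus strand), had 305.97, 331.8 and 375.2 CPM in the none group, 346.8, 346.3 and 301.3 CPM in the low group and 310.9, 338.8 and 423.9 CPM in the high group. Its log2 ratio of high to none was 0.08 ± 0.086, within its spread. Arpc1b, the form of its subunit that prevails in blood cells (chr5:145114215-145130705, plus strand), had 398.4, 407.9 and 326.8 CPM in the none group, 456.3, 391.4 and 427.0 CPM in the low group and 433.5, 339.01 and 352.4 CPM in the high group. Its log2 ratio was -0.01 ± 0.22 for plasma high against plasma none (0.11 without TH number 2), and it was lower in the high group than in the low group in 3 of 3 TH numbers, by -0.19 ± 0.10. That direction in 3 of 3 held in 10 of 14 settings of the processing, the main setting included.

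Arpc3, another subunit of the branch junction (chr5:122391878-122414184, plus strand), went the other way. It had 93.1, 69.99 and 48.2 CPM in the none group, 82.6, 49.6 and 32.2 CPM in the low group and 64.7, 63.1 and 35.3 CPM in the high group. Both plasma-positive groups lay below the none group within each TH number, although the groups overlapped. The log2 ratio to the none group was -0.37 ± 0.20 for plasma high and -0.41 ± 0.21 for plasma low. Arpc3 was the only one of the 10 genes under a mean of 200 CPM, and 17.9% of cells in the none group, 17.7% in the low group and 19.7% in the high group had a read of it at 50000 reads per cell. The share of cells with a read therefore did not follow the level, and with every cell given equal weight the ratio of high to none was -0.16. With that weighting Arpc3 was lower in 2 of 3 TH numbers in either plasma-positive group, and in thinned cells plasma low was also lower in 2 of 3.

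**Figure D2:**
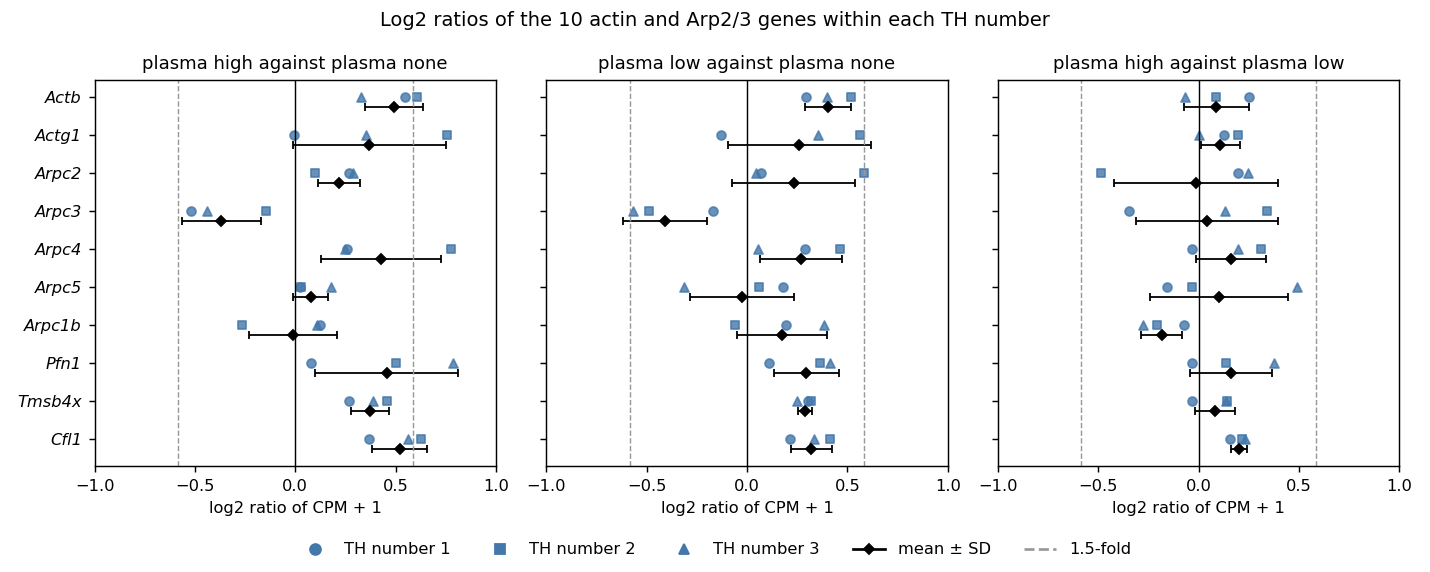
Log2 ratio of CPM + 1 (horizontal axes) for each gene in the 3 comparisons, with 1 point per TH number, the mean ± SD as a black diamond and bar, and dashed lines at a 1.5-fold difference. In plasma high against plasma none 7 genes have all 3 points above 0 and Arpc3 has all 3 below, while in plasma high against plasma low most genes have points on both sides of 0.

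Counted over the 10 genes, 7 were higher and 1 was lower in the high group than in the none group in 3 of 3 TH numbers. Of 5534 genes compared (a mean of at least 20 CPM and a read in at least 10% of cells of 1 group), 18.8% were higher and 13.8% lower by this rule. Of the genes with at least 200 CPM 25.4% were higher, and so were 7 of the 9 actin and Arp2/3 genes at that level. With scaling to library size alone the count was 6, as Arpc5 no longer had 1 direction. Of 14 settings that kept all 3 TH numbers, the main setting included, Arpc5 was higher in 3 of 3 in 8 and Arpc2 in 12. None of the 10 met the larger difference of at least 1.5-fold in the mean with 1 direction in 3 of 3, which 9.34% of genes met upward and 6.98% downward. Cfl1 and Arpc4 were the 2 whose plasma high values all exceeded their plasma none values, as did those of 8.51% of genes. The median log2 ratio of the 10 was 0.37 (0.19, 0.48 and 0.31 in TH numbers 1, 2 and 3, SD 0.15), and that of all genes compared was 0.05.

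In plasma low against plasma none, 6 of the 10 were higher and Arpc3 was lower in 3 of 3 TH numbers. Of 5489 genes compared, 16.7% were higher and 11.8% lower, and 17.2% of those with at least 200 CPM were higher. The 6 were Actb, Arpc2, Arpc4, Pfn1, Tmsb4x and Cfl1, and none met the 1.5-fold rule, which 6.03% of genes met upward and 4.19% downward. In 0 of the 10 did all plasma low values exceed all plasma none values, against 5.34% of genes. The median log2 ratio of the 10 was 0.27 ± 0.10.

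Plasma high and plasma low differed less. Actg1 and Cfl1 were higher and Arpc1b was lower in the high group in 3 of 3 TH numbers, against 14.1% of 5709 genes higher and 13.1% lower, and 17.4% higher among genes with at least 200 CPM. Of 14 settings that kept all 3 TH numbers, the main setting included, this held for Cfl1 in 14, Arpc1b in 10 and Actg1 in 6. Without TH number 1, 6 of the 10 were higher in both remaining TH numbers, against 25.4% of genes compared by that looser rule. The median log2 ratio of the 10 was 0.09 ± 0.11, no larger than its spread over TH numbers, and it was 0.18 without TH number 1 and 0.05 without TH number 3. The 3 comparisons share their groups, so their values are not independent of each other.

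Summed over the 10 genes, the level was 14170 ± 2253 CPM in the none group, 17972 ± 2430 CPM in the low group and 19167 ± 3300 CPM in the high group. They took 1.26% to 1.69% of all reads in the plasma none sums, 1.58% to 2.08% in the low group and 1.57% to 2.18% in the high group. Per kilobase of exon, Actb was the most abundant of the 10 at 3036 ± 457 CPM per kb in the none group, followed by Tmsb4x at 2449 ± 717, and these neighbours overlapped. Arpc4 came next at 210 ± 21.9 CPM per kb. Cfl1 (164.7 ± 24.9), Pfn1 (158.1 ± 48.4), Arpc2 (156.1 ± 10.4) and Arpc5 (148.3 ± 15.4) lay within their spread of each other, above Actg1 (90.1 ± 30.2), Arpc1b (73.8 ± 8.67) and Arpc3 (25.5 ± 8.12). The lengths join the exons of all annotated transcripts of a gene, 5.115 kb for Arpc1b and 2.033 kb for Arpc2, so the order depends on them. Before division by length, Arpc1b (377.7 CPM) lay above Arpc2 (317.4 CPM) in the none group.

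Plate position was looked at column by column, since it went with the groups. In TH number 1 the summed level of the 10 genes lay between 15429 and 17825 CPM in the 8 columns of the none group and between 18531 and 22534 CPM in the 8 columns of the low group, so no column of the none group reached one of the low group. In TH number 2 the ranges were 12338 to 15101 CPM and 15033 to 20830 CPM, and in TH number 3 they were 11016 to 14792 CPM and 13967 to 18194 CPM, both with a small overlap. The 7 columns of the high group that held cells in the tables spanned 18354 to 24341, 15279 to 23414 and 13191 to 17802 CPM in TH numbers 1, 2 and 3, across the range of the low group.

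**Figure D3:**
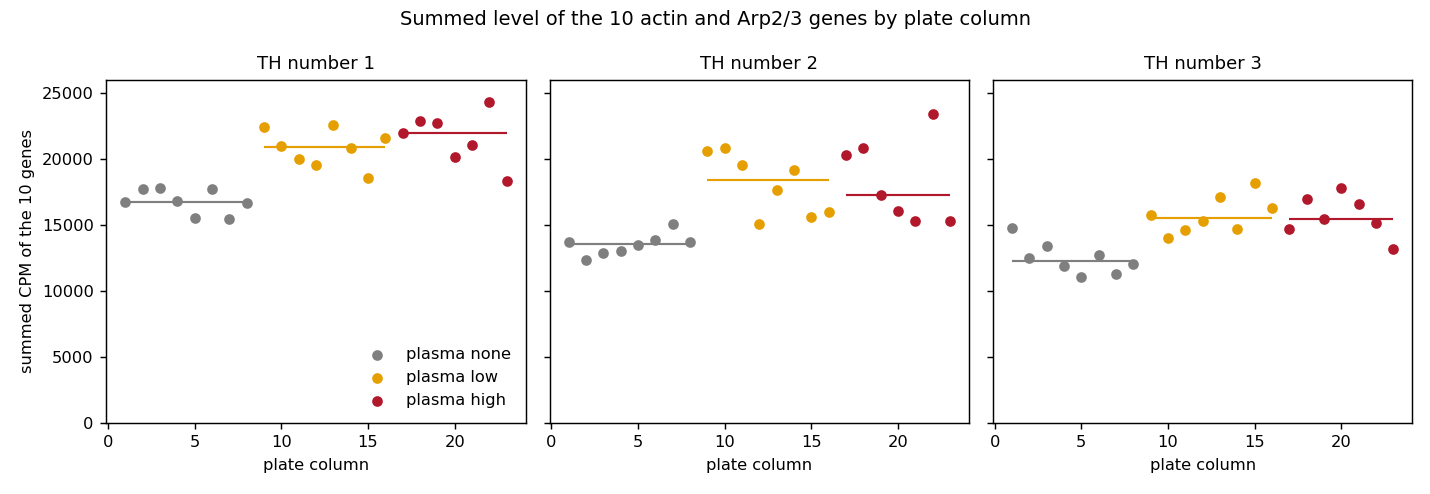
Summed level of the 10 genes in CPM (vertical axis, from 0) in each plate column (horizontal axis) for the 3 TH numbers, with points colored by plasma group and lines at the median of each group's columns. The level steps up between columns 8 and 9, where plasma none ends and plasma low begins, and plasma high overlaps plasma low.

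The number of genes seen per cell also differed between the groups. With every cell thinned to 50000 reads, the median number of genes per cell lay between 1462 and 1600 in the plasma none sums, 1623 and 2008 in the low group and 1655 and 1878 in the high group, and the median share of mitochondrial reads was 0.548% to 0.659%, 0.721% to 0.878% and 0.751% to 1.15%. Among only the cells with 1500 to 2000 genes at that depth, 53.2% of the none group and 55.2% of the high group, the median log2 ratio of the 10 genes was 0.15 and not 0.37. There 5 of the 10 were higher in 3 of 3 TH numbers, against 15.98% of genes compared. Cfl1 (0.56), Pfn1 (0.46), Actb (0.37) and Tmsb4x (0.34) kept ratios within 1 SD of those over all cells. So did Arpc4 (0.13), Actg1 (0.16), Arpc1b (-0.08) and Arpc3 (-0.54), although Arpc4 fell from 0.43 and Actg1 from 0.37. Arpc4 was still higher in 3 of 3. Arpc2 (0.10) and Arpc5 (-0.08) moved by more than 1 SD and no longer had 1 direction. In the same range of genes per cell, plasma low against plasma none had a median of 0.17. Only Actb (0.23) and Tmsb4x (0.28) were higher in 3 of 3 there, against 14.2% of genes compared.

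At the equal depth of 50000 reads, more cells of the plasma-positive groups had a read of most of the 10 genes. Actg1 was seen in 60.4% of plasma none cells (95% Clopper-Pearson interval 55.04% to 65.6%), 75.5% of the low group (70.7% to 79.9%) and 75.9% of the high group (70.5% to 80.7%). Intervals cover counting error only, and cells of 1 group are not replicates of it. Arpc4 was seen in 65.6%, 80.6% and 80.7% of cells, Arpc1b in 57.8%, 74.1% and 69.7%, and Arpc2 in 62.1%, 70.7% and 71.4%. Pfn1 was seen in 80.3%, 93.2% and 94.1% and Cfl1 in 80.6%, 92.6% and 93.1%. Arpc5 was seen in 37.6%, 47.01% and 49.3%. Without thinning the order was the same for Actg1, at 62.7%, 76.9% and 77.2%. Actb and Tmsb4x had a read in 99.4% or more of cells in each group, so for them the share could hardly differ. The part that the higher number of genes per cell played in these shares was not tested.

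**Figure D4:**
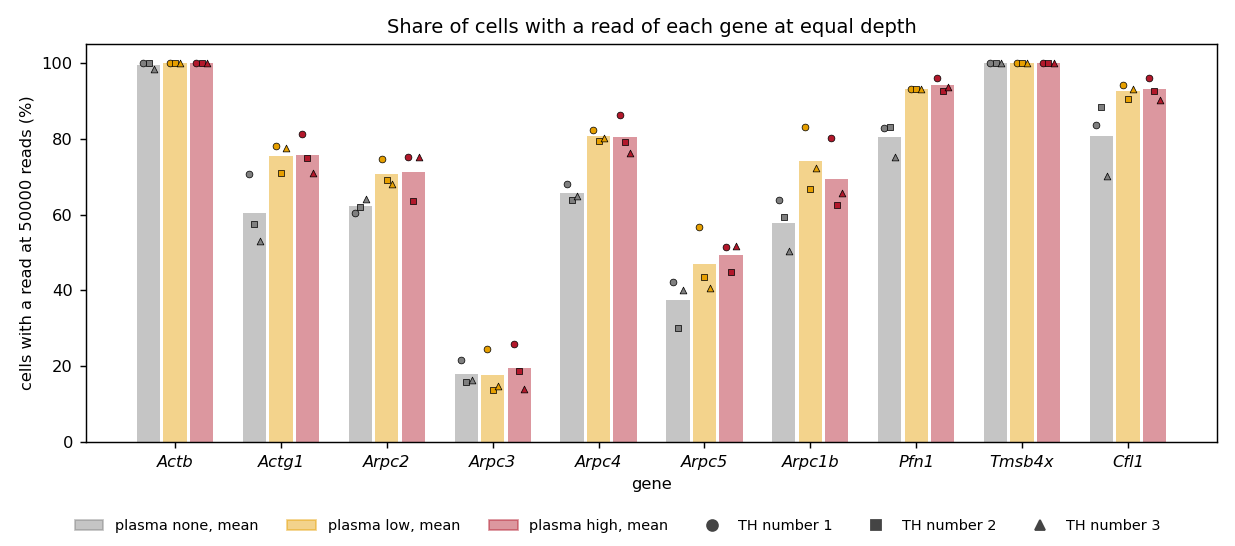
Share of cells with at least 1 read of each gene after thinning every cell to 50000 reads (vertical axis, percent), with bars at the mean of the 3 TH numbers in each plasma group and 1 point per TH number. Actg1, Arpc4, Pfn1 and Cfl1 stand higher in plasma low and plasma high than in plasma none, and Arpc3 stays near 18% to 20% in all.

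Single cells differed widely within a group. The median cell had 7711 ± 1455 CPM of Actb in the none group, 9874 ± 1284 in the low group and 9605 ± 1207 in the high group, so by the median cell plasma high was not above plasma low. The coefficient of variation between cells was 0.38 ± 0.069 for Actb and 0.50 ± 0.058 for Tmsb4x in the none group, against 1.15 ± 0.12 for Actg1 and 2.61 ± 0.26 for Arpc3, where most cells had no read. For Cfl1 it was 0.90 ± 0.15 in the none group, 0.79 ± 0.061 in the low group and 0.76 ± 0.075 in the high group. At 50000 reads, exactly 4 of the 5 Arp2/3 subunits had a read in 13.01% of cells of the none group, 25.9% of the low group and 24.5% of the high group. By TH number these shares were 18.1%, 7.96% and 12.8% in the none group, 30.5%, 23.1% and 24.1% in the low group and 29.7%, 21.9% and 21.5% in the high group, so the none group was lowest within each TH number. All 5 had a read in 3.45%, 3.54% and 0% of cells of the none group, 12.7%, 0% and 1.72% of the low group and 10.9%, 2.08% and 2.15% of the high group, with no single direction over TH numbers.

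Across cells of 1 group and TH number, the levels of the 10 genes were only weakly correlated. The Spearman correlation was taken on cells thinned to 50000 reads and averaged over the 9 sets of cells. It had a median of 0.021 over 45 pairs of genes and ranged from -0.058 for Actg1 with Arpc4 to 0.22 for Pfn1 with Tmsb4x. Actb with Tmsb4x had 0.20 and Actb with Cfl1 had 0.19. Cells of a set share a group and a TH number, and in sparse counts such weak values are a description only.

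The genes whose level followed the mean of the 10 most closely over the 9 sums, each centred within its TH number, were sought among 782 genes of at least 200 CPM. They were Fcer1g (Pearson r 0.99), Itgb2 (0.98), Fam49b (0.97), Tgfbr2 (0.97) and Ctsb (0.96), with log2 ratios of high to none of 0.58, 0.39, 0.50, 0.47 and 0.42. Of the 10 themselves, Cfl1 (0.98), Tmsb4x (0.98), Arpc4 (0.93) and Pfn1 (0.92) followed their common mean most closely, and Arpc1b had -0.10, each gene being part of the mean it was compared with. These points share their libraries and, within a TH number, their centring.

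The promoters were read because many actin genes carry a CArG box, the site of serum response factor. Promoters of 9 of the 10 genes were present in the RefSeq table (GRCm38.p6), all but Actb. Within the 250 bases before the start, both strands searched, Actg1 and Arpc4 held a CArG box, as did 1.47% of 32851 promoters. The windows around the boxes are shown 5′ to 3′ on the gene's strand, with the box in capitals:
Actg1, chr11:120348551-120348610, minus strand, box from 90 bases before the start: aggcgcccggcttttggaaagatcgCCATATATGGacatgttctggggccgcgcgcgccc
Arpc4, chr6:113377863-113377922, plus strand, box from 250 bases before the start: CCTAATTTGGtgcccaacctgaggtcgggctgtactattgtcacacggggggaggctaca
The match is to letters only, and binding was not measured.

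Other genes of the actin machinery were read from fixed lists, of which 78 genes could be compared in plasma high against plasma none. Of these 23 (29.5%) were higher and 7 (8.97%) lower in 3 of 3 TH numbers, against 18.8% and 13.8% of all genes, with a median log2 ratio of 0.22. By the 1.5-fold rule 9 (11.5%) were higher and 3 (3.85%) lower, against 9.34% and 6.98%. Among the remaining subunits of the Arp2/3 complex, Actr3, which encodes the actin-related protein Arp3, had 190.9 ± 29.6 CPM in the none group, 278.8 ± 22.2 in the low group and 315.3 ± 48.9 in the high group, a log2 ratio of 0.72 ± 0.42. Its partner Actr2, which encodes Arp2, had 1369 ± 116.5 CPM in the none group and 1311 ± 94.1 in the high group (-0.06 ± 0.18), and Arpc5l had -0.19 ± 0.37. Arpc1a had 0.24 ± 0.58, and Actr3 was the 1 of these 4 subunits with 1 direction in 3 of 3 TH numbers.

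Genes that cap, bundle or anchor filaments held 6 of the 12 differences past the rule. Of 6 capping and severing genes compared, 5 were higher in 3 of 3 TH numbers, with a median of 0.49: Capg, a macrophage capping protein, went from 22.8 ± 4.0 CPM in the none group to 52.1 ± 18.4 in the high group (1.11 ± 0.48), and Capza1, a subunit of capping protein, had 0.75 ± 0.52. The lowest of that list was Tmod3, which caps pointed ends, at -0.27 ± 0.29. Of 13 crosslinking and membrane-linking genes, 6 were higher and 1 lower in 3 of 3. Plek, a phosphoinositide-binding protein of blood cells, had 1.06 ± 0.68, Fscn1, which bundles filaments, 0.75 ± 0.93, and Msn, which ties filaments to the membrane, 0.68 ± 0.60, while the crosslinker Actn4 had -1.24 ± 1.07. The spread of Fscn1 exceeded its mean, and Actn4 was at 23.96 CPM in the high group.

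Genes that switch the Arp2/3 complex on showed no common direction. Of 14 activators compared, 2 were higher and 2 lower in 3 of 3 TH numbers, with a median of 0.02. Washc3, of the WASH complex on endosomes, was the 1 past the 1.5-fold rule, at -0.79 ± 0.62, and Abi2, of the WAVE complex, had the highest mean at 1.16 ± 2.03, in which TH number 2 alone had 3.40. Of 5 genes that inhibit or take apart branches, 2 were higher and 1 lower in 3 of 3. Gmfb, a debranching factor, had 0.73 ± 0.71 and its relative Gmfg -0.47 ± 0.21.

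Among 6 other genes of monomer binding and filament turnover, none was higher in 3 of 3 TH numbers. Cap1 had the highest mean (1.14 ± 1.12) and Twf1, which encodes twinfilin 1, the lowest (-0.35 ± 0.33). The median of the 6 was 0.41, and in plasma low against plasma none 3 of the 6 were higher in 3 of 3 TH numbers. Of 5 formins and Ena/VASP genes, Vasp, a filament elongation factor, was higher (0.70 ± 0.32), and Diaph2 was the lowest at -0.12 ± 0.30.

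Of 10 myosins and tropomyosins compared, 1 was higher and 1 lower in 3 of 3 TH numbers. Their median was 0.08, with 8 means above 0. Myh9, a nonmuscle myosin heavy chain, had 0.70 ± 0.37 and Tpm3, a tropomyosin that coats filaments, went from 1578 ± 613 CPM in the none group to 1190 ± 205.8 in the low group and 912 ± 51.2 in the high group (-0.72 ± 0.51). Myo5a had the highest mean, 1.80 ± 2.20, from 11.7 CPM in the none group to 34.3 in the high group. Of the SRF and MRTF genes only Mrtfa could be compared, at 0.49 ± 1.03, a spread larger than the mean.

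In plasma low against plasma none, 75 of these other genes were compared, of which 25.3% were higher and 5.33% lower in 3 of 3 TH numbers. Coro1c, Rdx and Tpm4 were higher and Myo1g was lower past the 1.5-fold rule, or 4% and 1.33% of the 75, against 6.03% and 4.19% of all genes. In plasma high against plasma low, 79 were compared, and Gmfb, Ssh1, Myo1g and Myo5a were higher and Washc2, Actn4, Rdx and Tpm4 lower past the rule, 5.06% in each direction against 5.48% and 5.66% of all genes. That share was near the background. Of the immediate early genes, which respond to cell handling, 0 of 4 compared were higher in the high group than in the none group and 3 were lower in 3 of 3 TH numbers, and the summed level of the 10 listed was 1182 ± 45.01 CPM in the none group and 934 ± 164.5 in the high group. Their part in the differences of the actin genes was not tested.

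**Figure D5:**
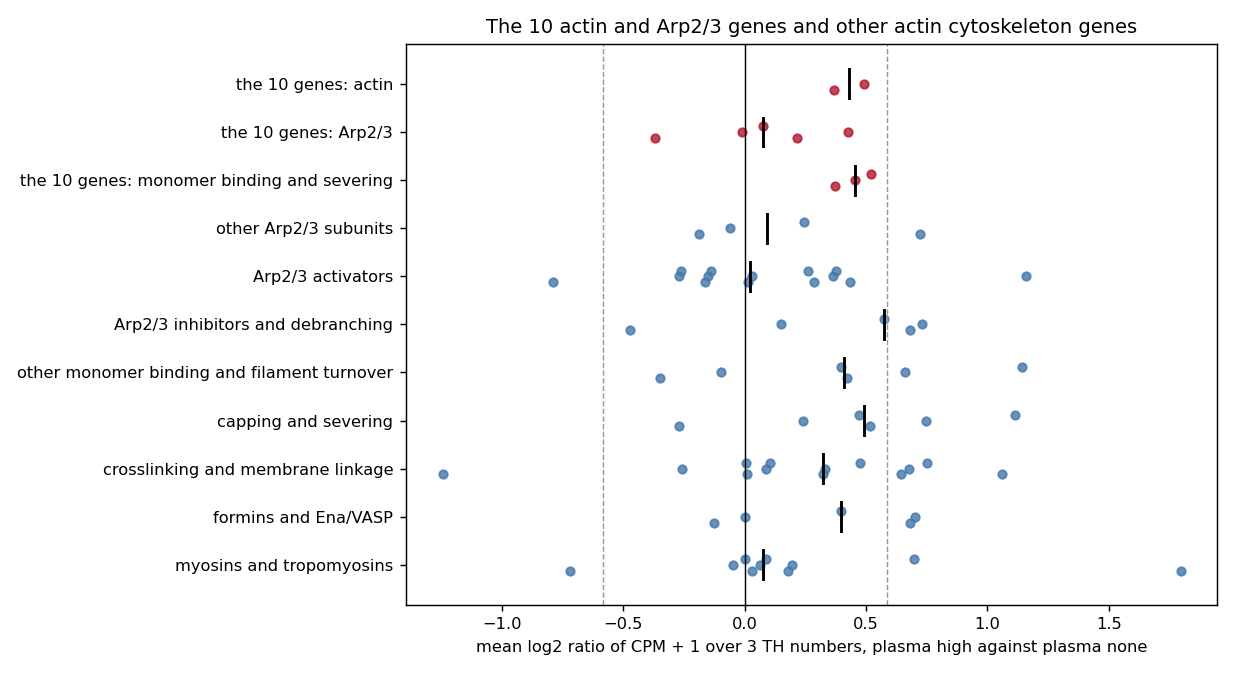
Mean log2 ratio of CPM + 1 over the 3 TH numbers in plasma high against plasma none (horizontal axis) for the 10 genes (red) and other actin cytoskeleton genes (blue), 1 point per gene compared and 1 row per list, with black bars at each list's median and dashed lines at a 1.5-fold difference. The 3 genes of monomer binding and severing lie between 0.37 and 0.52.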

How the data were processed

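The data are 3 tables of read counts per gene and cell, deposited by the authors as counts, 1 table per TH number, whole but for 2 values. Values of a cell never equalled those of another cell. Per the submitters' processing notes bcl2fastq, Trim Galore, STAR 2.5.3a and Seurat were used with build mm10; what counted the reads, and whether by strand, is not given in the sources used here. The 2 deposited values that were not whole, as estimated counts can be, were rounded. Of 1111 labelled cells 1045 had a column, matched by its name, and 66 were not analysed here. Cells with at least 50000 reads and 500 genes were summed per group and TH number, scaled with edgeR 4.0.16 (TMM) under R 4.3.3, and compared as log2(CPM + 1) within a TH number. Detection and the correlation between genes across cells were taken after thinning cells to 50000 reads. No test was made, since no label names an animal and a group counts as 1 sample. The ratios and rules were tested on simulated data. The 10 genes and all lists were chosen with earlier results of these data known. Of the cytoskeleton lists 1 is not reported here. The other cytoskeleton genes named are those past the 1.5-fold rule and the highest and lowest of each list, with Actr2, the partner of Actr3, named after its values were seen. Arpc1a, the remaining subunit of its list, is also named outside these rules. Alternatives covered scaling, pseudocount, gene and cell filters, each TH number, equal weight per cell, thinning, the top cell, outer wells and genes per cell.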

Additional observations from a re-analysis of the deposited data

How the results depend on the processing

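Ratios over 3 TH numbers describe these cells only, since the mice behind them are not named. The median log2 ratio of the 10 genes kept its direction in plasma high against plasma none and in plasma low against plasma none under every alternative run. In cells with 1500 to 2000 genes at 50000 reads, an alternative chosen after seeing the data, the median of plasma high against plasma none was 0.15 and that of plasma high against plasma low was -0.0058; the cause was not tested. There the count of the 10 genes higher in 3 of 3 TH numbers in plasma low against plasma none was 2, against 14.2% of genes compared.

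In plasma high against plasma low the count of the 10 genes higher in 3 of 3 was 1 with library size scaling and without the top cell of each gene. It was also 1 without cells with markers of another type and with the 10 genes left out of the totals. In these settings 10.1% to 14% of genes compared were higher. Without 1 TH number the count was 3 to 6, against 25.4% to 27.7% of genes compared. Leaving out a TH number asks for 1 direction in fewer TH numbers, and the genes past the 1.5-fold rule then numbered 1263 to 1551 in plasma high against plasma none (main count 903), 983 to 1134 in plasma low against plasma none (561) and 1091 to 1256 in plasma high against plasma low (636). With no filter on low genes they numbered 2531, 2017 and 2079, as more genes were compared. The log2 ratio of Arpc1b in plasma high against plasma none was 0.0086 with no cell filter, -0.079 to 0.11 without 1 TH number, 0.12 with cells weighted equally and 0.11 in thinned cells, and that of Arpc5 was -0.075 in the range of genes per cell. Arpc3 was read in under 20% of plasma none cells, so its level rests on few cells. All ratios were taken within a TH number, and no test was made with or without that pairing.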
